A study of Arabidopsis thaliana with 24 samples.

Results

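SAUR genes (SMALL AUXIN UP RNA) encode short plant proteins, and their transcripts are known for rising within minutes of auxin treatment and for being among the shortest-lived mRNAs of the cell. The genes described here are those whose description in the deposited table contains the word SAUR: 45 of 27782 genes listed. The deposited description itself gave a SAUR number for 25 of them, and the symbol of the other 20 was taken from RefSeq synonyms. RefSeq names 79 SAUR genes in all; 31 more of these are in the table under other descriptions and are used below only for comparison, and 3 were not analysed here.

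SAUR proteins of the expansion-promoting groups bind and inhibit phosphatases of the PP2C.D class, which otherwise remove phosphate from plasma membrane proton pumps; active pumps acidify the cell wall and allow growth. Transcription of many SAUR genes is raised by auxin, through degradation of Aux/IAA repressors and release of ARF transcription factors, and by light or shade signals through PIF factors. Some SAUR transcripts carry a downstream (DST) element in the 3′ untranslated region that destabilizes mRNA, and decapping is a main route of decay of short-lived mRNAs in plants.

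The data are messenger RNA sequencing of whole seedlings of Arabidopsis thaliana, accession Col-0, at 14 days, from 24 libraries, 3 in each of 8 groups. DNE1 (AT2G15560) is an endoribonuclease associated with the decapping machinery, and VARICOSE (VCS, AT3G13300) is a scaffold of the decapping complex. Batches 1 to 3, labelled 2018, hold untransformed WT, the T-DNA insertion mutant dne1-1, and a pair of transgenic lines, OE1 and OE2, that express DNE1 fused to GFP from the 35S promoter. Batches 4 to 6, labelled 2019, hold WT and vcs-6. Batches 7 to 9, also labelled 2019, hold WT and 1 line that expresses the D153N substitution of DNE1 fused to GFP, again from the 35S promoter. The 35S promoter is active in most tissues, so the fusions are not confined to the cells that normally make DNE1. Each overexpressor is a single line, the genotype of the endogenous DNE1 locus in the overexpressors is not given in the sources used here, and a whole seedling mixes root, hypocotyl, cotyledon and leaf. In such bulk samples fewer cells of a type and less RNA per cell cannot be told apart. The replicates are called biological in the labels, without more detail, so p-values refer to the spread among these libraries, which may be technical.

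Library depth ran from 36714564 to 70561391 recovered reads in the 2018 libraries and from 22611653 to 53908600 in those of 2019. DNE1 stood at 1294 to 1548 normalized read counts in WT of batches 1 to 3, at 263 to 362 in dne1, at 17739 to 23636 in both overexpressors, and at 12986 to 19289 in the D153N line against 802 to 854 in its own WT. VCS was not lower in the libraries labelled vcs-6. It stood at 7782, 7719 and 8844 there against 5745, 4604 and 5497 in WT, a rise of 0.62 ± 0.12 on the log2 scale (adjusted p = 0.0041). Counts per gene cannot tell an intact transcript from a broken one, so this does not check the label, and the name vcs-6 stands for libraries so labelled. Throughout, levels are normalized read counts, changes are log2 differences of normalized count plus 1 with the standard error (3 libraries per group), and an adjusted p is limma's after Benjamini-Hochberg correction across every gene tested in the fit. A gene was tested where at least 3 libraries of the fit reached a normalized count of 10, and "rose" or "fell" means an adjusted p under 0.05.

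The SAUR genes are compact. Of the 45, 42 have a single exon, their coding sequences run from 267 to 573 bases and their transcripts from 427 to 1402 bases in the RefSeq annotation of TAIR10.1. Many sit in tandem clusters, and 27 lie within 20 kb of another SAUR gene. The clusters on chromosomes 1 and 5 hold the SAUR61 to SAUR68 genes and the SAUR19 to SAUR24 genes. The latter are near copies of each other, which matters for how reads can be assigned. The first 60 coding bases of the 6 genes are shown for that reason, 5′ to 3′ on the coding strand, with capitals where a base differs from SAUR19 at the same position.
SAUR19 (chr5:5963246-5963305, minus strand): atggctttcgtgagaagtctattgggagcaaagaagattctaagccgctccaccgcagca
SAUR20 (chr5:5966521-5966580, minus strand): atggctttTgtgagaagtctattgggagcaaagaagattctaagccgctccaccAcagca
SAUR21 (chr5:5968527-5968586, plus strand): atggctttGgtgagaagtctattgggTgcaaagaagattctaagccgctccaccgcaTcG
SAUR22 (chr5:5974904-5974963, minus strand): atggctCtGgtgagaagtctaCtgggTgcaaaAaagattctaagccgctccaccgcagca
SAUR23 (chr5:5976030-5976089, plus strand): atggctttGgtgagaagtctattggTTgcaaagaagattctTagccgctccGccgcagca
SAUR24 (chr5:5983840-5983899, plus strand): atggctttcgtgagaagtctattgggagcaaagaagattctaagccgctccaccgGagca
The other 5 genes differ from SAUR19 at 1 to 5 of these 60 positions. Of the 45 members, 9 share over 20% of their 31-base words with other transcripts, so their reads may be divided between loci and their single values are uncertain. They are SAUR13 (88.6% shared), SAUR61 (45.9%), SAUR75 (45.5%), SAUR63 (41.8%), SAUR67 (38.9%), SAUR19 (38.6%), SAUR62 (34.1%), SAUR24 (25.8%) and SAUR20 (23.9%). SAUR13, SAUR61, SAUR63 and SAUR64 also overlap a gene on the opposite strand, and SAUR6 overlaps its neighbour SAUR7 on the same strand. The strand setting of the counting is not given in the sources used here, so reads of these overlapping genes cannot be told apart.

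The SAUR genes were expressed over a wide range of levels in wild-type seedlings. Per kilobase of transcript and averaged over the 9 WT libraries, SAUR78 was highest at 6056 normalized counts per kb and held 51.9% of all normalized counts of the 45 genes. SAUR76, SAUR77 and SAUR78 form a subfamily reported to interact with ethylene receptors. SAUR50, which light induces in opening cotyledons, followed at 1327 per kb, then SAUR6 at 729.6, SAUR32, a gene linked to apical hook growth, at 669.7, SAUR66 at 469 and SAUR63 at 423. At the other end SAUR18 and SAUR40 stood at 1.54 and 1.33 per kb, and SAUR2 had 9 reads in all 24 libraries. The 2018 and 2019 libraries were normalized separately, so this order rests on levels set across 2 scalings. The spread between WT libraries was also wide: SAUR50 ran from 138 to 2416 per kb and SAUR63 from 62.7 to 829.1, while SAUR76 stayed between 133 and 279. The ranges of SAUR50, SAUR6 and SAUR32 overlapped, so their order is not larger than the spread between libraries.

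Part of this spread followed the library rather than the gene. Among the 39 SAUR genes tested in the 2018 libraries, the library of batch 3 held the highest of its group's 3 values for 26 genes in WT, 27 in dne1, 22 in OE1 and 25 in OE2. The same library was highest for 36.2 to 40% of all genes tested. SAUR20, of the expansion-promoting SAUR19 subfamily, shows this: it read 85.2, 131 and 332 in WT of batches 1, 2 and 3, and 86.4, 159 and 764 in OE1. In batches 4 to 6, WT library 5 was the lowest of its group for 29 of 36 SAUR genes tested, against 35.4% of all genes. SAUR50 read 1103, 123 and 883 in WT 4, 5 and 6, and SAUR66 read 579, 119.7 and 413. In batches 7 to 9, WT 8 was highest for 25 of 36 SAUR genes, against 35.5% of all genes. No condition in the labels sets these libraries apart from the other WT libraries, and results on vcs-6 are therefore given with and without WT 5. The WT of batches 4 to 6 and that of batches 7 to 9 differed in 0 of 35 SAUR genes (1 gene of 20955 called in all, 0.00477%; 1 SAUR gene at an unadjusted p under 0.05, and 0 called by DESeq2 or edgeR). Over all genes edgeR also called 1 between these WT sets, while DESeq2 called 522 of 20878 (2.5%), 191 higher and 331 lower.

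**Figure D1:**
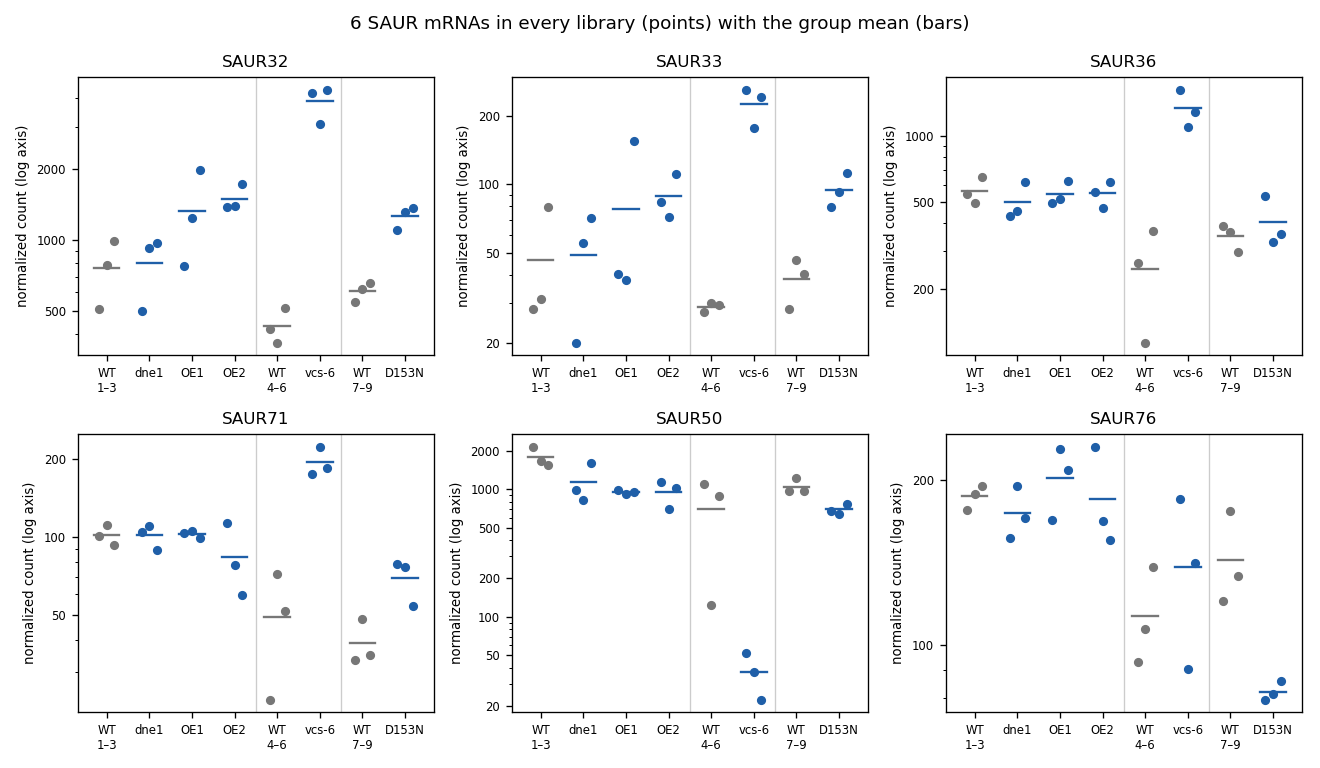
Normalized read count (log axis) of SAUR32, SAUR33, SAUR36, SAUR71, SAUR50 and SAUR76 in each of the 24 libraries, 1 point per library, with a bar at the mean of each group. The vcs-6 points of SAUR32, SAUR33, SAUR36 and SAUR71 lie above all WT 4 to 6 points and those of SAUR50 lie below them, while SAUR76 overlaps there and lies below its WT without overlap only in the D153N line.

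The first comparison asks how SAUR transcripts stand in the dne1 insertion mutant, in which reads of DNE1 were reduced but not absent. No SAUR gene passed the test in dne1: 0 of 39 tested, where 0.0185% of all genes were called, and edgeR and DESeq2 also called 0. An unadjusted p under 0.05 was reached by 3. The log2 differences ran from -1.57 to 0.25, with a median of -0.49 against -0.00 over all genes, and 33 of 39 lay below 0. Within batches 1, 2 and 3 the dne1 library lay below its WT for 32, 32 and 31 of the 39 genes, with medians of -0.63, -0.55 and -0.31. The groups overlapped for all but 2 genes. This count is given without the share over all genes. So are the counts above or below 0, and those at an unadjusted p under 0.05, in all comparisons. None of these counts is read as a result, and related copies among the genes are not separate cases.

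SAUR1 (AT4G34770) had the smallest p of these. It read 277, 189 and 223 in WT and 100.4, 51.6 and 156 in dne1, so that every dne1 library lay below every WT library. The difference was -1.27 ± 0.38, at an unadjusted p of 0.0062 and an adjusted p of 1. SAUR50 read 2157, 1674 and 1562 in WT and 996, 820.0 and 1621 in dne1, where the highest mutant library lay above the lowest WT library. Its difference was -0.70 ± 0.25 (adjusted p = 1). All 6 genes of the SAUR19 subfamily and all 8 tested genes of the SAUR63 subfamily lay below 0, with medians of -0.64 and -0.55, and 0 of them passed the test.

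The next comparison asks what excess DNE1 does to SAUR transcripts. No SAUR gene passed the test in OE1 (0 of 39; 0.139% of all genes called), in OE2 (0 of 39; 0.171%) or for the mean of both lines (0 of 39; 0.365%), and an unadjusted p under 0.05 was reached by 2, 4 and 4. DESeq2 called 1 gene, SAUR50, for both lines together (1.56% of all genes called) and 0 in each line alone, and edgeR called 0. The median over the SAUR genes was -0.04 in OE1 and -0.29 in OE2, with 23 and 28 of 39 below 0. These lines share their WT libraries with dne1, so similar values in the 3 comparisons are not independent.

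SAUR32 (AT2G46690) read 508, 782 and 990.4 in WT, 775, 1235 and 1982 in OE1 and 1373, 1388 and 1719 in OE2. Every OE2 library lay above every WT library, and in OE1 each library lay above the WT library of its own batch. The difference for both lines was 0.89 ± 0.31 (adjusted p = 0.39). With batch as a block, which takes out what the libraries of 1 batch share, the same 0.89 had a standard error of 0.15 and an adjusted p of 0.015 (2.47% of all genes called). SAUR50 read 984, 912 and 947 in OE1 and 1148, 705 and 1027 in OE2, below all 3 WT libraries in each case. Its difference was -0.91 ± 0.21 (adjusted p = 0.14), and -0.91 ± 0.18 with the batch block (adjusted p = 0.027). In OE2 alone the block called SAUR32 (1.02, adjusted p = 0.026) and SAUR1 (-1.30, adjusted p = 0.042), where 1.17% of all genes were called, and in OE1 it called 0 SAUR genes, where 1.24% of all genes were called. The authors' deposited table, which fits both overexpressors together, gives SAUR32 a log2 change of 0.752 with an adjusted p of 9.99e-06 and SAUR50 one of -0.742 with 2.34e-05.

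SAUR78, the most abundant SAUR transcript, read 11039, 8471 and 5641 in WT, 7171, 5323 and 2546 in OE1 and 4503, 1574 and 4175 in OE2. All OE2 libraries lay below all WT libraries, while OE1 overlapped with WT, and each of the 6 overexpressor libraries lay below the WT library of its own batch. The difference for both lines was -1.10 ± 0.43 and did not pass the test (adjusted p = 0.48), nor did it with batch as a block (-1.10 ± 0.34, adjusted p = 0.14).

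The line with the D153N substitution was compared with the WT of its own batches. Of 36 SAUR genes tested, 2 rose and 2 fell, where 15.9% of all genes were called (9.09% higher and 6.84% lower, or 1920 and 1445 genes; edgeR with scaling by library size alone called 2161 higher and 691 lower, among them 3 SAUR genes higher and 2 lower). DESeq2 called 6 SAUR genes, with SAUR6 and SAUR71 added, where it called 21.9% of all genes. The median of the SAUR genes was 0.03, with 20 above and 16 below 0. SAUR32 read 1106, 1318 and 1365 in the D153N line and 548, 619 and 655 in WT, and SAUR33 (AT3G61900) read 79.4, 92.5 and 112 against 28.3, 46.3 and 40.1. For both genes every line library lay above every WT library. SAUR32 rose by 1.05 ± 0.12 (adjusted p = 0.0043) and SAUR33 by 1.30 ± 0.24 (adjusted p = 0.019).

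The genes that fell in the D153N line were SAUR76 and SAUR50. SAUR76 read 79.4, 81.4 and 85.7 against 120.1, 175 and 134 in WT, a fall of -0.78 ± 0.18 (adjusted p = 0.031). SAUR50 read 678, 638 and 772 against 973, 1218 and 970.5, a fall of -0.59 ± 0.13 (adjusted p = 0.026). The groups did not overlap for either gene. In the authors' deposited table SAUR50 was not called in this line (-0.483, adjusted p = 0.553), whereas SAUR76 was (-0.756, adjusted p = 0.0273). The same table gives SAUR32 a rise of 1.03 (adjusted p = 8.38e-08) and SAUR33 one of 1.24 (adjusted p = 2.63e-05). With batch as a block SAUR32 and SAUR33 kept their calls (10.1% of all genes called), and SAUR50 (adjusted p = 0.056) and SAUR76 (adjusted p = 0.055) did not. SAUR33 also lost its call without WT 9 (adjusted p = 0.067) or without D153N library 15 (adjusted p = 0.066), whereas SAUR32 was called with any 1 library left out.

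The D153N effect and the overexpression effect of unaltered DNE1 were also tested against each other, in a fit of all 24 libraries. None of 39 SAUR genes differed (2.15% of all genes called; 3 SAUR genes at an unadjusted p under 0.05, and 0 called by DESeq2 or edgeR). Of all genes, the D153N effect was the higher for 409 and the lower for 69, or 521 and 24 by edgeR with scaling by library size alone. SAUR32 stood 1.05 higher in the D153N line and 0.89 higher in both overexpressors, each against its own WT. The differences of the SAUR genes lay above 0 for 33 of 39, with a median of 0.33 against -0.01 over all genes.

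**Figure D2:**
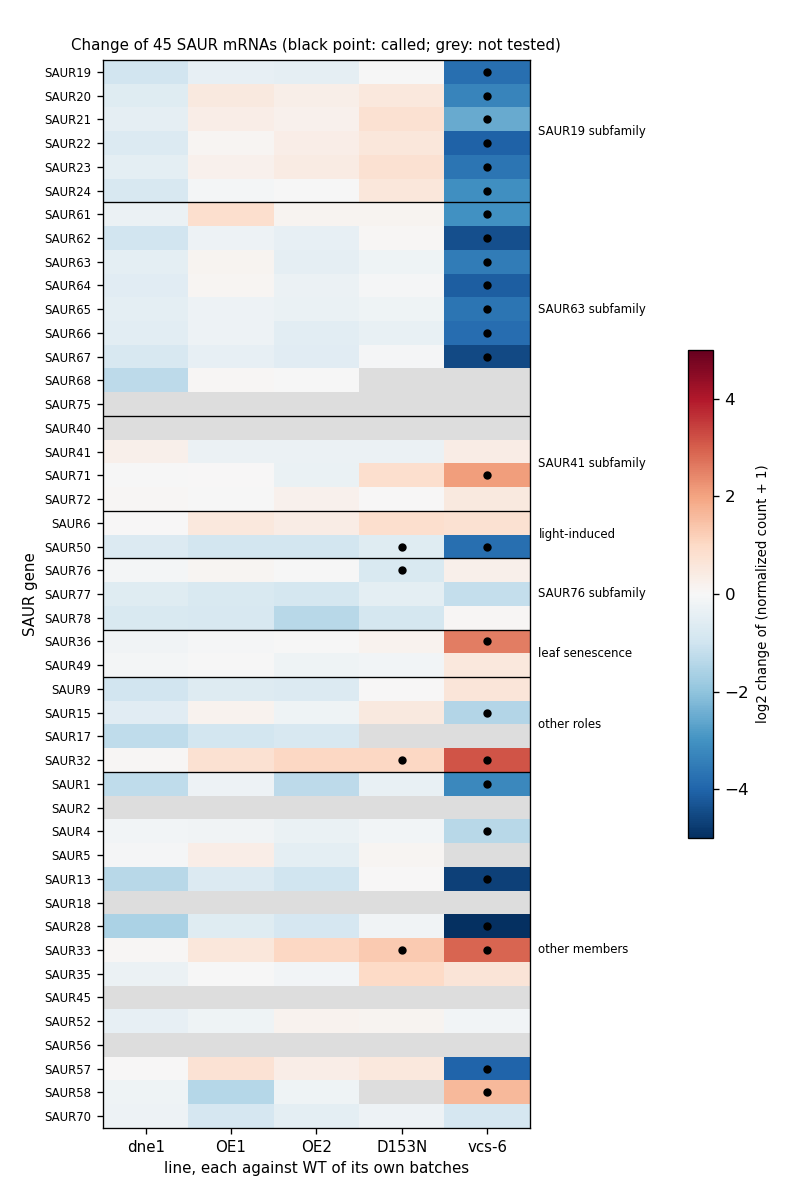
Log2 change of each of the 45 SAUR genes in dne1, OE1, OE2, the D153N line and vcs-6, each against the WT of its own batches, as colour, with a black point where the gene was called and grey where it was not tested. The vcs-6 column holds 25 called genes, 5 higher and 20 lower, and the D153N column holds 4.

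The libraries labelled vcs-6 showed by far the most SAUR calls of these comparisons, and they went in opposite directions for different genes. Of 36 tested, 5 rose and 20 fell; of all genes, 51.5% were called, 26.7% higher and 24.8% lower. Changes ran from -4.97 to 3.15 with a median of -2.00, against a median of 0.00 over all genes. The genes that rose were SAUR32, SAUR33, SAUR36, SAUR71 and SAUR58. Those that fell included every tested gene of the SAUR19 and SAUR63 subfamilies, with SAUR50, SAUR1, SAUR4, SAUR13, SAUR15, SAUR28 and SAUR57.

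The filter on low values shapes the count of falls. Of the 36 tested genes, 9 reached 10 only in WT libraries (SAUR61, SAUR62, SAUR67, SAUR28, SAUR57, SAUR13, SAUR19, SAUR22 and SAUR70) and 1 only in vcs-6 libraries (SAUR58), so these could be tested only because 1 group was high. Among the 26 genes with at least 10 in a library of each group, 16 were called, 4 higher and 12 lower, and the median was -0.65; under the same rule 50% of all genes were called. Among the 18 genes with at least 50 in 3 libraries, 11 were called, 4 higher and 7 lower, and the median was 0.32; this filter called 53.4% of all genes. The median therefore describes the filter as much as the genes, while both directions of change are present at every filter tried.

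SAUR32 had the largest rise of the 36 SAUR genes tested in this comparison. It read 4175, 3094 and 4323 in vcs-6 against 418, 367 and 514 in WT, a rise of 3.15 ± 0.17 (adjusted p = 1.9e-05). SAUR33, annotated with 3 exons, read 261, 177 and 242 against 27.4, 30.2 and 29.4, a rise of 2.91 ± 0.21 (adjusted p = 4.9e-05). In each case the lowest vcs-6 library lay far above the highest WT library of these batches.

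SAUR36 (AT2G45210), which promotes leaf senescence, read 1623, 1100.4 and 1291 against 264, 114 and 368. It rose by 2.56 ± 0.39 (adjusted p = 0.0012), and the highest 2019 library outside vcs-6 read 533, in the D153N line. SAUR49, placed with it in the senescence group, read 56.1, 49.9 and 74.9 against 51.8, 22.7 and 58.8 (0.52 ± 0.38, adjusted p = 0.29). SAUR71 (AT1G56150), of the SAUR41 subfamily that promotes cell expansion, read 176, 224 and 186 against 23.5, 72.3 and 51.7, a rise of 2.099 ± 0.38 (adjusted p = 0.0028). The other tested genes of that subfamily, SAUR41 and SAUR72, stood at 0.38 ± 0.26 and 0.50 ± 0.54 and were not called. SAUR58 was the weakest of the 5: it read 28.6, 14.5 and 13.6 against 5.86, 8.63 and 2.35 (1.64 ± 0.52, adjusted p = 0.031) and was not called without WT 4 (adjusted p = 0.062) or WT 6 (adjusted p = 0.081).

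All 6 genes of the SAUR19 subfamily, which promotes cell expansion, fell in vcs-6, with changes from -4.04 to -2.52 and a median of -3.47. SAUR19 and SAUR22 are among the genes that could be tested only because WT was high. The summed normalized count of the 6 genes was 61.6, 58.8 and 65.2 in the vcs-6 libraries and 1049, 371 and 739 in WT 4, 5 and 6. The vcs-6 libraries agreed closely while WT spread, and the lowest WT sum was still above every vcs-6 sum. Because of shared words this sum is firmer than any 1 gene of it. SAUR23, which shares only 9.1% of its words, read 11, 15.3 and 17.5 against 298, 142 and 162, a fall of -3.64 ± 0.33 (adjusted p = 0.00011). In the D153N line the subfamily summed to 432, 1128 and 1259 against 413, 1045 and 414 in WT, with overlapping groups, a median change of 0.56 and 0 genes called.

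The SAUR63 subfamily, linked to elongation of hypocotyls and stamen filaments, moved alike. Of its 9 genes 7 were tested in vcs-6 and all 7 fell, with changes from -4.52 to -3.04. SAUR61, SAUR62 and SAUR67 are among the genes that could be tested only because WT was high. The subfamily summed to 74.8, 42.7 and 99.2 in vcs-6 and to 2134, 408 and 1547 in WT 4, 5 and 6. SAUR66, with 6.8% shared words, read 23.1, 13.7 and 28.2 against 579, 119.7 and 413, a fall of -3.82 ± 0.57 (adjusted p = 0.001). SAUR64 read 13.2, 5.63 and 9.72 against 340.2, 68 and 230.4 (-4.13 ± 0.59, adjusted p = 0.00086). In the D153N line the median of the subfamily was -0.08 and 0 genes were called.

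**Figure D3:**
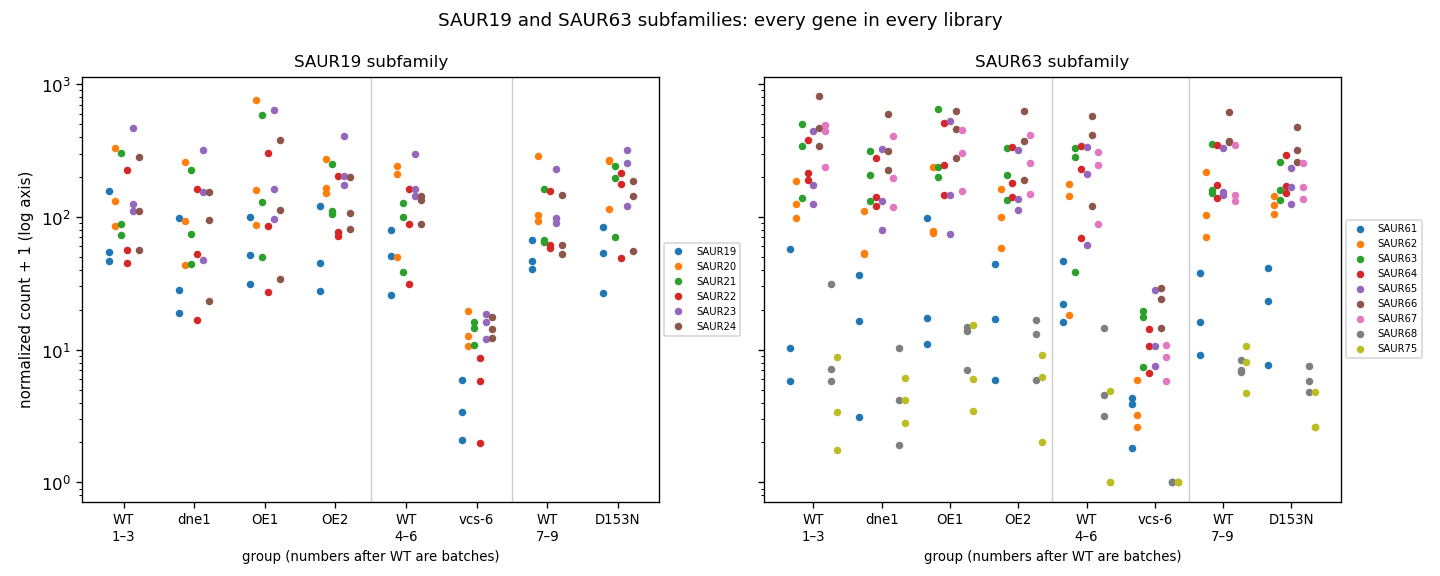
Normalized read count plus 1 (log axis) of the genes of the SAUR19 subfamily and of the SAUR63 subfamily in each of the 24 libraries, 1 point per gene and library, ordered by group. Sums and single libraries are not marked. Summed over either subfamily, counts are lowest in the 3 vcs-6 libraries, and WT 5 lies between these and WT 4 and WT 6. Within each 2018 group the batch 3 library has the highest sum.

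Genes outside these subfamilies fell as well. SAUR50 read 51.7, 37 and 22.4 in vcs-6 against 1103, 123 and 883 in WT, a fall of -3.78 ± 0.78 (adjusted p = 0.0049), and every vcs-6 library lay below the WT 5 library too. SAUR1 read 12.1, 2.41 and 11.7 against 115, 35.6 and 108 (-3.23 ± 0.65, adjusted p = 0.0045). SAUR28 had 0 reads in all 3 vcs-6 libraries and read 59.6, 17.3 and 27 in WT, so with a floor of 3 reads per library it was at least 12.04-fold lower. SAUR57 had 1 read in the vcs-6 libraries together against 31.3, 11.9 and 18.8 normalized counts in WT, a ratio of 67.0 with an exact counting interval of 11.6 to 2690. The fitted log2 changes of SAUR28 and SAUR57 depend on the pseudocount and are not given as sizes.

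SAUR15 (AT4G38850), also known as SAUR-AC1 and widely used as an auxin-induced marker, read 13.2, 13.7 and 27.2 in vcs-6 against 85, 25.9 and 54.1. The highest vcs-6 library lay above the lowest WT library, WT 5, so the groups overlapped. SAUR15 fell by -1.48 ± 0.48 (adjusted p = 0.034) and lost its call without WT 4, WT 6 or either of a pair of the vcs-6 libraries (adjusted p from 0.089 to 0.115). It is the only one of the 45 genes whose transcript end holds the parts of a DST element searched for: GGA, then ATAGAT within 12 bases, then GTA within 25 bases, in the last 300 bases of the transcript. The ATAGAT lies 99 bases after the stop codon, shown in capitals in the 30 bases around it (chr4:18126616-18126645, plus strand). These 30 bases also hold the GTA, while the GGA starts before them.
SAUR15 transcript end: atacaatacATAGATcgtaattgatcaatg
These 3 parts were found together in 1 of 45 SAUR genes (2.2%) and in 0.5% of 24976 genes, and ATAGAT alone in 5 of 45 (11.1%) against 10.5%. Genes with ATAGAT were called in both directions in vcs-6: SAUR71 rose, and SAUR62, SAUR28, SAUR15 and SAUR24 fell. SAUR62 and SAUR28 could be tested only because WT was high. The search covers these letters only.

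Other SAUR genes were not called in vcs-6. SAUR78 read 6501, 3883 and 3722 against 7376, 1859 and 6031 (0.06 ± 0.49, adjusted p = 0.93), SAUR6 read 1246, 877 and 1287 against 1017, 361 and 813 (0.74 ± 0.36, adjusted p = 0.12), and SAUR76 read 185, 90.2 and 141 against 92.9, 107 and 139 (0.26 ± 0.29, adjusted p = 0.49). Their groups overlapped. The summed count of all 45 genes was 15157, 10126 and 11881 in vcs-6 and 14316, 4521 and 11841 in WT. Without SAUR78 it was 8656, 6242 and 8159 against 6939, 2663 and 5810, of which WT 5 was the lowest. Of these sums, SAUR32, which rose, with SAUR9, SAUR15 and SAUR17 held 4334, 3179 and 4403 in vcs-6 against 565, 447 and 621 in WT. With SAUR32 included, summed SAUR counts were thus not lower in vcs-6 although the SAUR19 and SAUR63 subfamilies and SAUR50 fell. A sum without SAUR32 is not given.

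Results on vcs-6 were compared with and without WT 5, which was low for most SAUR genes. Without it 27 SAUR genes could be tested and 20 were called, 7 higher and 13 lower (48% of all genes called). Without WT 4 or WT 6, which leaves WT 5 with 1 other library, 14 of 27 were called each time, 4 higher and 10 lower (42.3% and 43.1% of all genes called). With any 1 WT library left out, a gene had to reach 10 in a vcs-6 library to be tested. The 9 genes that reached 10 only in WT therefore dropped out, and the smaller counts of falls partly reflect this filter. Of 15 calls named here and still tested each time, 0 were lost without WT 5, 2 without WT 4 and 2 without WT 6. Against the 6 WT libraries of batches 4 to 9, a comparison added after the data were seen, 29 of 37 were called, 6 higher and 23 lower (59.6% of all genes called). Without the 8 tested members that share over 20% of their words, 17 of 28 were called, 5 higher and 12 lower (51.5% of all genes called). These calls still include SAUR22, SAUR28 and SAUR57, tested only because WT was high, and SAUR58, tested only because vcs-6 was high.

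Tissue markers differed between the vcs-6 and WT libraries too. All 3 leaf markers fell (CA1 by -2.53 ± 0.16, LHCB2.1 by -1.59 ± 0.21 and RBCS1A by -0.92 ± 0.27, adjusted p of at most 0.022), and their summed normalized count was 351000 to 502000 in vcs-6 against 841000 to 1020000 in WT. Of 5 root markers PYK10 rose and MYB36 fell, and the sum of the 5 was 84000 to 114000 against 42900 to 53900. Such a sum follows the most abundant genes, and the median log2 change of the root markers was 0.18. Of the pollen markers VGD1 stood at 0 to 0.8 and PLIM2A fell, and their sum was 11 to 17.5 against 22.3 to 49.6. LHCB2.1 and PLIM2A share 31.8% and 70.2% of their words with other transcripts, so their single values are uncertain. In the D153N line 0 markers of any of the 3 lists were called. The part of tissue makeup in the SAUR changes of vcs-6 was not tested.

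Whether the vcs-6 effect differs from that of the D153N line was tested directly. It did for 21 of 39 SAUR genes, with the vcs-6 effect the higher for 4 and the lower for 17 (26.3% of all genes called, 13.3% higher and 13% lower). The vcs-6 effect was higher for SAUR36 by 2.37, for SAUR32 by 2.0996, for SAUR71 by 1.27 and for SAUR76, which fell in the D153N line and was not called in vcs-6, by 1.03. It was lower for all 6 genes of the SAUR19 subfamily and for 6 of 8 tested genes of the SAUR63 subfamily. SAUR33, which rose in both lines, is not among the 21. Against the effect of both DNE1 overexpressors 24 of 39 differed, 5 higher and 19 lower (35.5% of all genes called, 18.4% higher and 17.1% lower, or 4080 and 3802 genes; edgeR with scaling by library size alone called 4569 and 2733, among them 5 SAUR genes higher and 18 lower). The genes called against WT in both vcs-6 and the D153N line, which do not share WT libraries, were SAUR32, SAUR33 and SAUR50, each with the same sign: 12% of the vcs-6 calls and 75% of the D153N calls. Over all genes, the calls shared by both with the same sign made up 20% of the vcs-6 calls and 65.4% of the D153N calls. With either sign counted, these shares were 21.2% and 69.1%, so 3 of 4 lies near the share over all genes. The D153N call of SAUR50 was absent with batch as a block and in the authors' table.

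Position on the chromosome was also read beside the vcs-6 calls. Of the 20 genes that fell, 19 lie within 20 kb of another SAUR gene, as do 5 of the 11 tested genes that were not called and 0 of the 5 that rose. SAUR51, listed under another description, goes the other way: it lies 4503 bases from SAUR52 and rose by 1.79 ± 0.31 (adjusted p = 0.0021). The 20 that fell include SAUR61, SAUR62, SAUR67, SAUR28, SAUR57, SAUR13, SAUR19 and SAUR22, which could be tested only because WT was high. SAUR58, among those that rose, could be tested only because vcs-6 was high. The direction of these genes was therefore set by the filter, and counts without them are not given. A relation between position and direction was not tested. Median transcript length was 760 bases for those that fell, 812 for those that rose and 977 for those not called, and GC content was 36.6%, 37.7% and 38.6%. These ranges overlap, and clustered genes are related copies rather than separate cases.

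The auxin response element core TGTCTC was searched on both strands in the window from 250 bases before to 50 bases after the gene start. It was found for 8 of 45 SAUR genes (17.8%) against 14.1% of 25191 genes: 1 of the 5 that rose, 6 of the 20 that fell, 1 of the 11 not called and 0 of the 9 not tested. Of the genes with a match, SAUR62, SAUR67 and SAUR22 were tested only because WT was high, and SAUR58 only because vcs-6 was high. The G-box CACGTG, searched in the same window, was found for 0 of 45 against 8.1%. The 250 bases before SAUR66, the most abundant per kb of the SAUR63 subfamily and the holder of a pair of TGTCTC matches, and those before SAUR32, which holds none, are shown as the ends of this range, with the matches in capitals.
SAUR66 (chr1:10320761-10321010, plus strand): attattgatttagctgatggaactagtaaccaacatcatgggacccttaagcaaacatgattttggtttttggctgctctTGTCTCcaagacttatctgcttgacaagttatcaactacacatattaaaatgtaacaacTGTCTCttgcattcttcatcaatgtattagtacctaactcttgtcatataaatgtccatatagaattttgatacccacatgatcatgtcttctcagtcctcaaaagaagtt
SAUR32 (chr2:19180455-19180704, plus strand): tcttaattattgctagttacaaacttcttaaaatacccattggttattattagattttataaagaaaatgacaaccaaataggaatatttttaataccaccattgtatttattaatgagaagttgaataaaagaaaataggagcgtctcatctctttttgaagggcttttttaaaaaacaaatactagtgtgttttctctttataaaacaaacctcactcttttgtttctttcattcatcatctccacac
A match of these letters is a description of the window, not a site of binding.

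The pathway around the SAUR genes was read from lists of auxin and growth genes. In dne1, OE1 and OE2 0 genes of any list were called. In vcs-6 51.5% of all genes were called, 26.7% higher and 24.8% lower, so calls in these lists are common there. In vcs-6, of 10 tested Aux/IAA genes, which encode the repressors of auxin transcription and are themselves early auxin genes, 7 fell and 0 rose, with a median of -1.84. IAA14 read 295, 269.7 and 335 against 1849, 1519 and 1421 in WT (-2.40 ± 0.14, adjusted p = 2.4e-05), and IAA29 read 7.7, 11.3 and 6.81 against 149, 82 and 72.9 (-3.37 ± 0.35, adjusted p = 0.00021). The groups were far apart for both. Of the 6 tested GH3 genes, which conjugate auxin, GH3.2 and GH3.6 fell and 0 rose. Of the auxin receptors TIR1 rose by 0.37 and AFB1 (-1.99) and AFB4 (-0.40) fell, and of 9 tested synthesis genes YUC4 rose and TAR2, YUC3 and YUC5 fell.

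Factors known to act at SAUR promoters went both ways in vcs-6, where 51.5% of all genes were called. Of 12, ARF5, HY5 and PIF3 rose and PIF4, PIF5, PIF7, ARF6, ARF7 and ARF19 fell. PIF4, which activates growth genes in warmth and shade, read 5578, 6089 and 6560.0 against 16522, 13041 and 15691 (-1.31 ± 0.13, adjusted p = 0.00016). Downstream of the SAUR proteins, 2 of 9 PP2C.D phosphatase genes fell. PP2C.D1 read 119.9, 85.3 and 92.4 against 1675, 639.7 and 1246 (-3.47 ± 0.33, adjusted p = 0.00014), with every vcs-6 library far below WT, and PP2C.D7 fell by -1.87 ± 0.21. Of 10 proton pump genes AHA1 and AHA9 rose and AHA4 and AHA11 fell. AHA9 read 56.1, 134 and 122 against 2.93, 5.39 and 2.35, although AHA1 remained far more abundant at 29526 to 33486.

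In the D153N line 9 of 62 tested genes of these lists were called (14.5%), near the 15.9% of all genes. AFB1 (-0.65), TAR2 (-0.92), PIF4 (-0.83), ARF19 (-0.58), ARF5 (-0.46), PP2C.D7 (-0.55), AHA11 (-0.55) and AHA3 (-0.39) fell, and IAA7 rose by 0.40 ± 0.08 (adjusted p = 0.025). IAA7 read 9094, 8305 and 8851 against 6415, 7012 and 6467, without overlap, and was the only Aux/IAA gene called there.

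The 31 SAUR genes listed under other descriptions also went both ways in vcs-6: of 23 tested 6 rose and 6 fell, with a median of -0.31. Of all genes, 51.5% were called there, 26.7% higher and 24.8% lower. SAUR34 read 57.2, 62 and 80.7 against 1.96, 8.63 and 0, and SAUR59 read 4072, 3384 and 3544 against 1111, 1858 and 1433, both above WT without overlap. SAUR29 read 5.5, 3.22 and 5.83 against 284, 57.2 and 148, and lies beside SAUR28 on chromosome 3. In the D153N line 1 of 25 was called (15.9% of all genes called), SAUR12, which rose by 1.25 ± 0.28 (adjusted p = 0.03).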

How the data were processed

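Reads came from whole-seedling RNA extracted with TRIZOL and turned into libraries by a Lexogen SENSE mRNA-Seq kit, as the labels state. The submitters' processing notes name HISAT2 2.1.0, HTSeq, bcl2fastq 2.17.1.14, DESeq2 and the TAIR10 build. The authors deposited a signal per gene and library, which is a read count divided by a size factor, from DESeq2 1.24.0 per the file header. Whole reads were recovered for 100% of values (tolerance 1e-06). The 2018 and 2019 libraries were scaled separately and list different genes (1208 and 660 of 27782 not listed). The deposited log2 fold changes and p-values of the authors were used for the values credited to their table only.

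The test was limma 3.58.1 with a mean trend, in R 4.3.3, applied to log2 values of normalized count plus 1, which understates changes of low genes. One fit held the 12 libraries of batches 1 to 3; vcs-6 and D153N were each fitted with their own WT, and differences of effects in all 24. Calls are adjusted over all genes tested. Alternatives were edgeR 4.0.16 (quasi-likelihood test) and DESeq2 1.42.0 on recovered reads, other filters and pseudocounts, a batch block, and each library left out.

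Same-batch libraries deviated together: correlations of deviations from group means were 0.137 to 0.682 (18 pairs) against -0.577 to 0.219 (36 pairs across batches) in batches 1 to 3, and 0.0713 to 0.229 (3 pairs) against -0.328 to 0.169 (6 pairs) in batches 7 to 9. The labels give these shared batches. No batch is given in the deposited vcs-6 columns, and vcs-6 has no block fit. Of the gene identifiers 27574 matched RefSeq (TAIR10.1), which gave symbols, coordinates and sequences. Named are every called member, or the 8 largest rises and falls where over 10 were called, the members of the role groups, and a few genes singled out after their values were seen. The members, lists and tests were chosen with earlier results of these data known. Counting intervals and floors cover counting error only.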

Additional observations from a re-analysis of the deposited data

Results flagged for a closer look

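The effect of vcs-6 differed from that of the D153N line or of both DNE1 overexpressors for the SAUR genes below, by the test of the difference itself (limma on all 24 libraries, Benjamini-Hochberg adjusted p under 0.05). Values are differences of log2 changes, each change against the WT of its own batches. With 26.3% and 35.5% of all genes called in these contrasts, such differences are common among all genes, and no explanation was tested.

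Where the vcs-6 effect was the higher, the difference from the D153N effect was 2.37 for SAUR36, 2.0996 for SAUR32, 1.27 for SAUR71 and 1.03 for SAUR76, which fell in the D153N line and was not called in vcs-6. The difference from the overexpression effect was 2.60 for SAUR36, 2.46 for SAUR58, 2.27 for SAUR32, 2.25 for SAUR71 and 2.09 for SAUR33.

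In the SAUR19 subfamily the difference from the D153N effect was -3.74 for SAUR19, -3.80 for SAUR20, -3.27 for SAUR21, -4.61 for SAUR22, -4.40 for SAUR23 and -3.60 for SAUR24. From the overexpression effect it was -3.32, -3.68, -2.78, -4.25, -3.94 and -3.0002 in the same order of genes.

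In the SAUR63 subfamily the difference from the D153N effect was -4.48 for SAUR62, -3.30 for SAUR63, -4.09 for SAUR64, -3.42 for SAUR65, -3.45 for SAUR66 and -4.44 for SAUR67. From the overexpression effect it was -3.51 for SAUR61, -4.07 for SAUR62, -3.33 for SAUR63, -4.03 for SAUR64, -3.34 for SAUR65, -3.44 for SAUR66, -4.02 for SAUR67 and -2.59 for SAUR68.

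Outside these subfamilies SAUR50 differed by -3.18 from the D153N effect and by -2.86 from the overexpression effect, and SAUR13 by -4.70 and -3.83. Fitted differences for SAUR28 were -4.80 and -4.25, and for SAUR57 -4.54 and -4.54; with at most 1 read in the vcs-6 libraries together these depend on the pseudocount and are no sizes. The same holds for SAUR68, which had 0 reads there. SAUR13, SAUR19, SAUR22, SAUR61, SAUR62 and SAUR67 did not reach 10 in any vcs-6 library, so their fitted sizes are uncertain too. For SAUR13, which also shares 88.6% of its words, DESeq2 gave -5.50 and -4.79.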

How the results depend on the processing

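Of the 74 SAUR calls over all comparisons, 0 changed sign in the 1318 values that the alternatives gave for them. With batch as a block, the counts of SAUR genes called were 0 in dne1, 0 in OE1, 2 in OE2, 2 for both overexpressors and 2 in the D153N line. DESeq2 called 1 for both overexpressors. No paired analysis was possible for vcs-6 because its deposited columns carry no batch. In vcs-6 a filter of at least 50 in 3 libraries gave 11 calls of 18 tested; with 1 library left out the count ran from 14 (without WT 4 or WT 6) to 24, where 41.9% to 48% of all genes were called. In the D153N line the count ran from 1 (without WT 9 or D153N library 15) to 5 (without D153N library 13) with 1 library left out, where 3.58% to 19.5% of all genes were called, was 2 without WT 7, WT 8 or D153N library 14, and was 2 (1 higher and 1 lower) in a fit of all 24 libraries, where SAUR33 (adjusted p = 0.080) and SAUR50 (adjusted p = 0.49) were not called. SAUR50 and SAUR76 lost their D153N calls without any of WT 7, WT 8, WT 9 or D153N libraries 14 and 15 (adjusted p from 0.051 to 0.096). The cause was not tested for these changes of call.

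The median over SAUR genes tested in vcs-6 moved most: it was -1.38 without a filter, -0.49 without the members that share words, -0.11 without WT 4, -0.55 without WT 5 and 0.12 without WT 6. With 1 WT library left out, genes that reached 10 only in WT could not be tested. Those medians, and the matching counts of calls, therefore cover fewer genes. Counts of differing effects ran from 16 to 22 against the D153N line and from 20 to 24 against the overexpressors with 1 library left out. The share over all genes is not given for these fits, so the counts are not read as results. With all libraries kept, 26.3% and 35.5% of all genes were called. SAUR21, SAUR24, SAUR61 and SAUR68 lost their calls most often. Scaling by library size alone moved the median of all genes by 0.11 in vcs-6, and the 5 higher and 20 lower SAUR calls stayed at those numbers. Several SAUR genes lie near the count of 10, and for these the depth limits what can be tested.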

Other observations

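These values were picked out after they were seen and belong to no comparison of the design. The SAUR19 subfamily summed to 411, 561 and 1760 normalized counts in WT of batches 1, 2 and 3. PIF4 read 8041, 2418 and 22107 in the same libraries, LHCB2.1 read 26187, 8519 and 133799, and IAA29 read 42.2, 45.9 and 304, so all were highest in the batch 3 library. The dne1, OE1 and OE2 libraries of batch 3 were likewise the highest of their groups for PIF4, LHCB2.1 and IAA29. WT 5, low for most SAUR genes, did not stand far from WT 4 and WT 6 for PIF4 (13041 against 16522 and 15691) or LHCB2.1 (109317 against 161976 and 118098). SAUR72 (275 against 67.4 and 85.8) and SAUR35 (53.9 against 12.7 and 8.23) were highest in WT 5. What these WT libraries share or do not share beyond their batch number is not given in the sources used here.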
